A study of Mus musculus with 45 samples.

Results

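The mouse Zfp genes encode zinc finger proteins, most of them DNA-binding and a few RNA-binding. The genes described here are the protein-coding genes whose symbol is Zfp followed by a digit and whose level averaged at least 3 TPM (a length-corrected transcript level, scaled to the same total in every library) over the 8 wild-type Control libraries of distal colon. Of 50600 genes measured, 394 were protein-coding genes with such a symbol. Of these, 233 reached 3 TPM and are called the Zfp members below, and 161 did not. The members were thus chosen by their Control TPM, so those values are given as a description. The main counts of members called against Control are set beside the same count over all genes.

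The libraries came from poly(A)-enriched RNA of mouse distal colon. The Il10 knockout groups comprised 10 libraries given vehicle (KO vehicle), 7 given the GPR4 antagonist compound 13 at 10 mg/kg, 9 given it at 30 mg/kg, 5 labelled day 77 and given anti-p40, and 5 labelled day 77 and given vehicle. Mice lacking the anti-inflammatory cytokine interleukin-10 develop colitis, and p40 is the subunit shared by the inflammatory cytokines interleukin-12 and interleukin-23. The 8 Control libraries were wild type and untreated, so deletion and vehicle cannot be told apart in the comparison with Control. Within a group, the median coefficient of variation of member TPM was 21.0% in KO vehicle and 14.9% in Control, against 18.9% and 12.6% among protein-coding genes at 3 TPM or more. The labels used here give no age, sex, strain or link of libraries to animals, so p-values measure the spread between libraries, which may be technical.

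Depth ranged between 22682471 and 36279743 estimated counts per library. Il10 was listed at 0 TPM in every knockout library, against 0 to 0.21 TPM in Control, where its own median was 0.025 TPM, so its level says little about the labels. Markers of pancreatic acinar cells summed to more than 100 TPM in 13 libraries, among them 4 of KO vehicle and 1 of Control (replicate 5), which also held 722 TPM of hepatocyte markers. KO vehicle replicate 3 stood apart from its group, with 6330 TPM of smooth muscle markers, against 239 to 4312 TPM in the other KO vehicle libraries and 3807 to 8796 TPM in Control.

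Zinc fingers are short folds held by a zinc ion. In the C2H2 class, arrays of fingers read DNA bases one after another, and in mammals the largest group joins such an array to a KRAB domain, which recruits the corepressor Trim28 and the histone methyltransferase Setdb1 to silence chromatin, transposable elements above all. The CCCH class includes the Zfp36 family, which binds AU-rich elements in mRNAs of cytokines and speeds their decay, and the loss of Zfp36 causes inflammation in mice.

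A search of the translated proteins found C2H2 fingers in 224 of the 233 members and CCCH fingers in 3, Zfp36, Zfp36l1 and Zfp36l2. A KRAB pattern was found in 110 members (47.2%), against 116 of the 161 Zfp genes under 3 TPM (72.0%). The KRAB members held a median of 12 C2H2 fingers, against 7 in the 123 members without the pattern, and the longest array was that of Zfp142 with 36. The median Control level was 5.54 TPM among KRAB members, against 11.5 TPM among the others. Only 6 members averaged 50 TPM or more in Control, namely Zfp36l2, Zfp207, Zfp467, Zfp706, Zfp36l1 and Zfp36, and none of them carried the KRAB pattern. At the edge of the rule, Zfp407, Zfp281 and Zfp74 averaged 3.05, 3.06 and 3.07 TPM, while Zfp975, Zfp963 and Zfp759 fell outside at 2.998, 2.94 and 2.92 TPM, and 9 members would have averaged under 3 TPM without their highest Control library. By position, 50 members lay on chromosome 7, 33 on chromosome 17 and 18 on chromosome 8, in part as clusters of neighbouring genes.

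Promoters from RefSeq (build GRCm38.p6, 250 bases before to 50 after the start) were matched for 197 of the 233 members. They held a median of 16 CpG dinucleotides per 300 bases, against 7 over all 27025 promoters, with 10.5 in KRAB members and 21 in members without KRAB. Searched on both strands, the GC box GGGCGG was present in 47.2% of member promoters, against 35.9% of all, and CCAAT in 47.7%, against 37.9%. TATAAA was present in 6.6% of member promoters, against 14.2% of all, TTCNNNGAA in 14.2%, against 8.47%, and TGANTCA in 5.08%, against 7.93%. The CArG box, the binding sequence of serum response factor, was present in 1.52% of member promoters and 1.57% of all. The 150 bases before the start are shown for 5 members on which the results below turn, with GC box, CCAAT and CArG box matches on either strand in capitals. They lie at chr7:28379229-28379378 (minus strand, Zfp36), chr12:80113014-80113163 (minus strand, Zfp36l1), chr7:24132222-24132371 (plus strand, Zfp235), chr6:48601857-48602006 (plus strand, Zfp775) and chr7:80024664-80024813 (plus strand, Zfp710).
Zfp36: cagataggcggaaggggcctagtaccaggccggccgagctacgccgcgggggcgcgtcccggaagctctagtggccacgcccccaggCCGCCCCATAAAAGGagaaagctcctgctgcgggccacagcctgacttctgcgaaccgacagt
Zfp36l1: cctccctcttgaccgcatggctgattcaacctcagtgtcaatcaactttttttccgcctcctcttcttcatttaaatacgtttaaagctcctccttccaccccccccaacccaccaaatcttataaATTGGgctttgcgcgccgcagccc
Zfp235: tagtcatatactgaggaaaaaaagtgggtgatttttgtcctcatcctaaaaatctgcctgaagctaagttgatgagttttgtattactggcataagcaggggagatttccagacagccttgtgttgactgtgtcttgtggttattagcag
Zfp775: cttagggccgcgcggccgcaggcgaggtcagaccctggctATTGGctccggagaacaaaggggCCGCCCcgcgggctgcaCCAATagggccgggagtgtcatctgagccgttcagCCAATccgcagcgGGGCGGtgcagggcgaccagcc
Zfp710: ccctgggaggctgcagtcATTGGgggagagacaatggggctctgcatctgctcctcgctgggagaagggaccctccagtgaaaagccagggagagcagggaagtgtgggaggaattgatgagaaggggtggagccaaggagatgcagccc

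These 5 windows differed in composition. That of Zfp36 held 14 CpG and a CArG box starting 58 bases before the start, which shares a base with a GC box starting 63 bases before it. That of Zfp775 held 15 CpG, 2 GC boxes and 3 CCAAT matches, while that of Zfp235 held no CpG and none of the 3 sequences. The RefSeq starts used here need not match the gene intervals given below. The Zfp235 window ends before the interval of that gene begins, and the Zfp36 window lies inside the interval of its gene. A match is a description of the letters and says nothing of binding.

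Summed over the 233 members, the level was 2236 ± 228 TPM in KO vehicle (SD, n = 10), against 2874 ± 141 TPM in Control (SD, n = 8). Over all protein-coding genes at 3 TPM or more in Control, the median log2 fold change on log2(TPM + 1) was -0.18, against -0.39 over members. Part of the lower member sum was thus shared with genes chosen by the same level rule. The KO vehicle libraries ran from 2032 to 2793 TPM and the Control libraries from 2633 to 3028 TPM. The ranges overlapped only through KO vehicle replicate 3, the library with the high smooth muscle markers. Without it, the highest KO vehicle library was at 2348 TPM. High smooth muscle markers did not go with a high member sum in every library. KO vehicle replicate 8 held 4312 TPM of these markers with a member sum of 2159 TPM. Control replicate 6 held the highest marker sum, 8796 TPM, with the lowest Control member sum, 2633 TPM. The relation between member and marker sums was not tested. The compound 13 libraries summed to 2121 ± 312 TPM at 10 mg/kg (SD, n = 7) and 2090 ± 131 TPM at 30 mg/kg (SD, n = 9), all under the lowest Control library. Compound 13 was not compared with Control by a test, and no sum over other genes is set beside these values. At day 77 the sum was 2537 ± 157 TPM under anti-p40, against 2296 ± 180 TPM under vehicle (SD, n = 5 each), and the ranges of 2274 to 2677 TPM and 2008 to 2460 TPM overlapped.

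**Figure D1:**
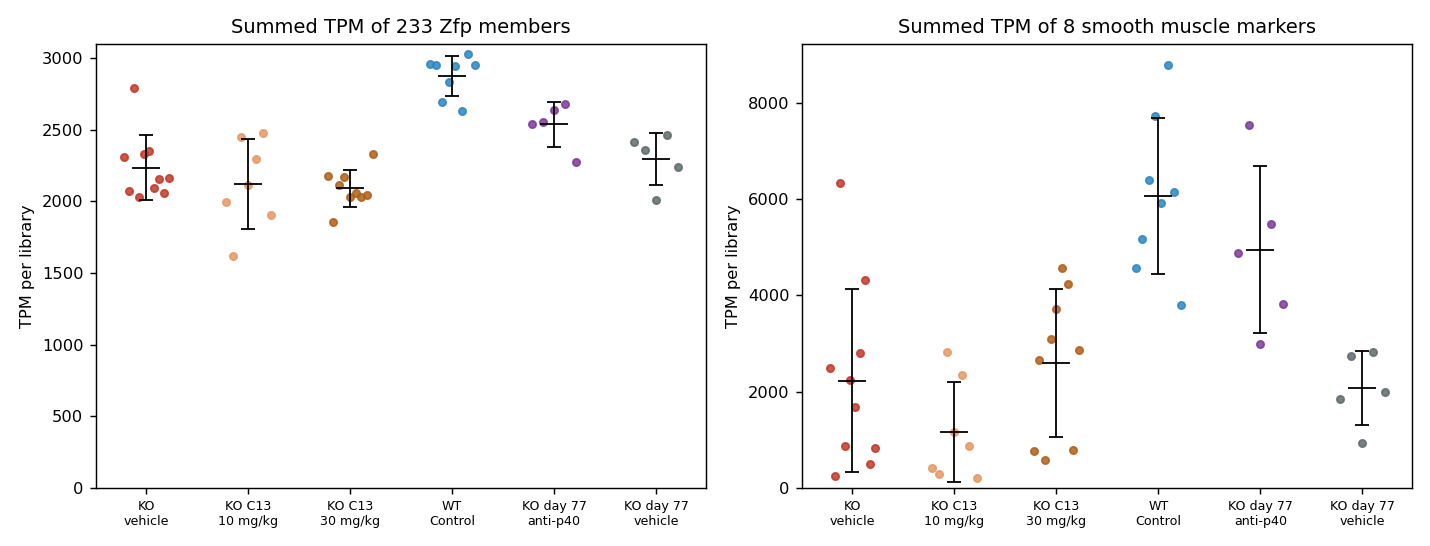
Summed TPM per library of the 233 Zfp members (left) and of 8 smooth muscle markers (right) in the 6 groups; each point is a library, and the bar and whiskers are the mean and SD. Member sums lie between 2032 and 2793 TPM in KO vehicle and between 2633 and 3028 TPM in WT Control. The single KO vehicle library above the lowest Control library also has the highest smooth muscle sum of its group. The Control library with the highest smooth muscle sum, 8796 TPM, has the lowest member sum of Control.

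In KO vehicle colon, most Zfp members were at lower levels than in Control. By edgeR's quasi-likelihood test on TMM-scaled counts (a scaling that centres most genes on no change), with Benjamini-Hochberg adjustment over all genes tested and a threshold of 0.05, 113 of the 233 members were lower and 11 higher. Over the 16435 genes tested, 24.1% were lower and 25.2% higher. Among all protein-coding genes at 3 TPM or more in Control, which the same level rule would pick, 26.6% were lower and 26.9% higher, against 48.5% and 4.72% of the members. The median log2 fold change was -0.24 over members and -0.01 over all genes, and 191 of the 233 members had a negative value. By number of C2H2 fingers, 2 of 9 members with none were lower (22.2%), 15 of 48 with 1 to 5 (31.2%), 39 of 71 with 6 to 10 (54.9%), 34 of 68 with 11 to 15 (50%) and 23 of 37 with 16 or more (62.2%), and the differences between these classes were not tested. KRAB members had a median of -0.27 with 59 of 110 lower and 2 higher, and members without KRAB had -0.21 with 54 of 123 lower and 9 higher. The shift per gene was small, with members between -1.33 and 0.91 on the log2 scale. Without KO vehicle replicate 3, 122 were lower and 11 higher, and without the libraries with acinar markers 106 were lower and 11 higher. Choosing members by a mean of 3 TPM in KO vehicle in place of Control gave 90 lower, 12 higher and a median of -0.21. The 126 of 161 Zfp genes under 3 TPM that passed the low-count filter had 52 lower, 3 higher and a median of -0.42.

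The scaling changed the size of this shift and the number of calls. On log2(TPM + 1) with limma, which compares shares of the transcript pool, 154 members were lower and 5 higher, against 40% and 14.2% of the 14186 genes in both fits. There the median of all genes itself moved to -0.17, and that of the members to -0.39. Counts scaled to the library total gave 155 lower, 6 higher, a member median of -0.38 and an all-gene median of -0.16. TMM factors applied to the TPM gave 110 lower, 10 higher and medians of -0.24 for members and -0.02 for all genes. The shares of all genes called on total-scaled counts and with TMM factors on the TPM are not given here. The member counts under these settings therefore cannot be read against the shares of all genes quoted for other scalings. A library scaling moves all genes by nearly the same amount, so the distance between the medians of members and all genes, -0.23 on TMM counts, says nothing of how the scaling bears on the members. The distance was -0.26 by DESeq2 and on log2(TPM + 0.1), and -0.36 on log2(TPM + 1) without the filter on low values, which changes the genes compared. Of the 113 members lower on TMM counts, 109 were also lower on log2(TPM + 1).

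**Figure D2:**
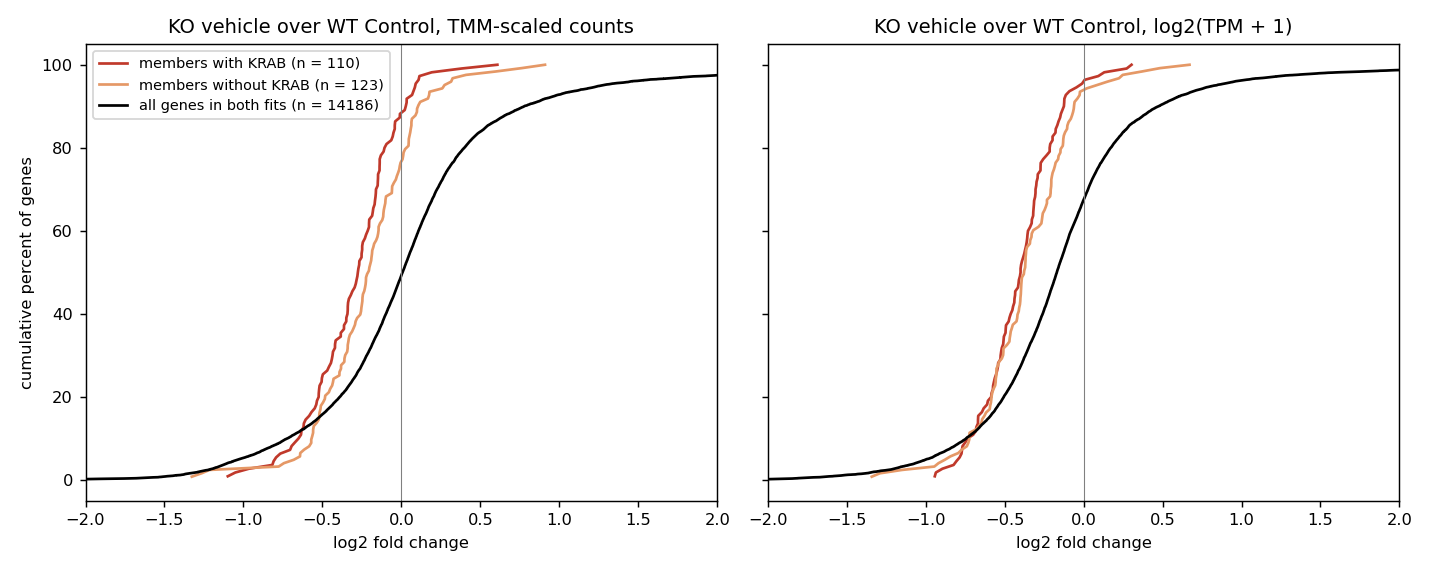
Cumulative percent of genes against the log2 fold change of KO vehicle over WT Control, for KRAB members, members without KRAB and all genes in both fits, on TMM-scaled counts (left) and log2(TPM + 1) (right). The member curves lie left of the all-gene curve in both panels, with member medians of -0.24 and -0.39, and the all-gene curve crosses 50% at -0.01 on the left and -0.17 on the right.

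Cell type markers moved in the same comparison. Of the markers fixed for each type, 8 of 8 smooth muscle, 5 of 8 neuron and glia and 5 of 6 fibroblast genes were lower in KO vehicle, while 8 of 10 epithelial, 6 of 6 proliferation, 6 of 6 macrophage and 5 of 6 T cell genes were higher. Summed smooth muscle markers ran from 239 to 6330 TPM in KO vehicle, against 3807 to 8796 TPM in Control, and summed epithelial markers from 13210 to 22060 TPM, against 13330 to 14880 TPM. None of the smooth muscle, fibroblast or epithelial markers was listed at 0 throughout a group. The part of cell composition in the Zfp member shift was not tested. In bulk tissue, fewer cells of a type and less RNA per cell cannot be told apart.

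The Zfp36 family of mRNA decay factors did not move together. Zfp36 (tristetraprolin, chr7:28376784-28380253, GRCm38) was at 55.9, 83.1 and 132 TPM (lowest, median, highest) in KO vehicle, against 48.6, 52.7 and 57.4 TPM in Control. One KO vehicle library overlapped the narrow Control range and the others lay above it. On TMM counts Zfp36 was higher by 0.91 ± 0.13 on the log2 scale (SE), with an adjusted p of 5.19e-05 and with all 10 KO vehicle libraries above the Control mean. On log2(TPM + 1) it was higher by 0.67 (limma, adjusted p = 0.000144), so the direction held under both scalings. Zfp36 was one of 5 members higher under both.

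Zfp36l1 (chr12:80107754-80113013), a relative that also acts in T and B cell development, went the other way. Its level was 24.2, 27.9 and 66.4 TPM in KO vehicle, against 44.8, 52.8 and 64.0 TPM in Control. The highest KO vehicle value came from replicate 3, and the other 9 libraries lay at or below 38.7 TPM, under every Control library. Its log2 fold change was -0.56 ± 0.14 (SE, adjusted p = 0.00309), and -0.69 without that library. Its estimated counts were not whole in 77.8% of libraries, so part of its reads was shared with other sequences.

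Zfp36l2 (chr17:84183931-84187947) was the most abundant member in Control. It stood at 48.7, 73.8 and 146 TPM in KO vehicle, against 92.9, 100.5 and 125 TPM in Control. The KO vehicle libraries spread on both sides of the whole Control range. Above that range lay only replicate 3, at 146 TPM, while the KO vehicle median lay under it. On TMM counts the difference of -0.10 ± 0.17 on the log2 scale (SE, adjusted p = 0.655) was smaller than its error. On log2(TPM + 1) the difference was larger, at -0.36. Under all 29 alternatives Zfp36l2 kept its sign and was not called.

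**Figure D3:**
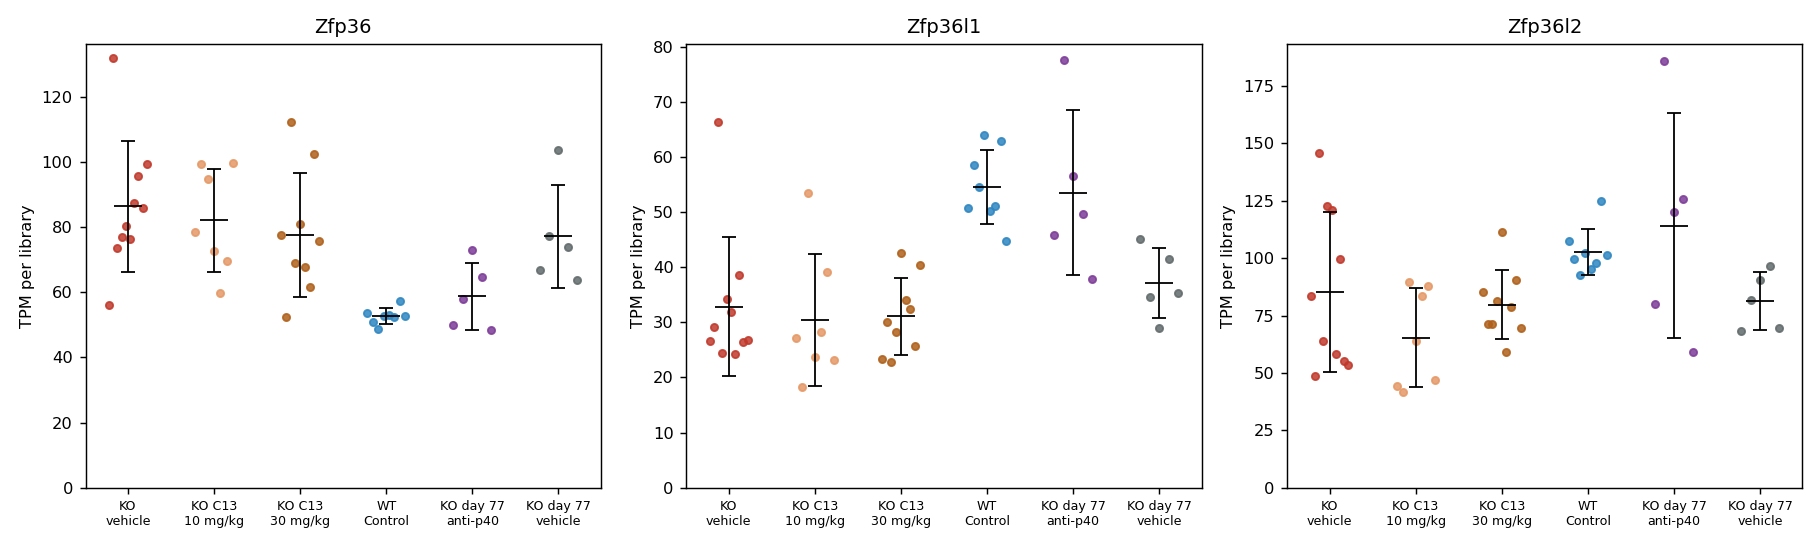
TPM per library of Zfp36, Zfp36l1 and Zfp36l2 in the 6 groups; points are libraries, and the bar and whiskers are the mean and SD. Zfp36 lies at 48.6 to 57.4 TPM in WT Control and reaches 132 TPM in KO vehicle, whereas 9 of 10 KO vehicle libraries of Zfp36l1 lie under the lowest Control library and Zfp36l2 spreads from 48.7 to 146 TPM in KO vehicle.

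Genes on which the family acts, or with which it works, were read from lists chosen with earlier results of these data known. Beside them, 25.2% of all genes tested were higher and 24.1% lower on TMM counts, and 14.2% and 40% on log2(TPM + 1). Of 10 known target mRNAs of Zfp36, 5 passed the low-count filter, which a gene high in a single group can pass, and all 5 were higher in KO vehicle. The cytokine Tnf averaged 13.8 ± 13.3 CPM (counts scaled to library size, here with TMM factors) in KO vehicle, against 0.999 ± 0.377 CPM in Control (SD, n = 10 and 8). Of 11 immediate-early genes 9 were higher, none lower, and the median log2 fold change was 1.09. Egr1 averaged 53.1 ± 16.5 CPM in KO vehicle, against 15.3 ± 2.26 CPM in Control (SD). Of 18 genes of the deadenylation and decapping machinery, 4 were higher and 4 lower with a median of 0.01, and on log2(TPM + 1) 1 was higher and 8 lower. Dcp2, the decapping enzyme, averaged 55.8 ± 30.6 CPM in KO vehicle, against 28.6 ± 3.27 CPM in Control (SD, adjusted p = 0.00508).

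Some members have other known functions in RNA and protein turnover. Of 9 such genes acting on RNA, ribosomes or the mitotic spindle, 3 were lower and none higher on TMM counts. The shares of all genes tested were 24.1% lower and 25.2% higher. On log2(TPM + 1), 6 of the 9 were lower, beside 40% of all genes. Zfp622, a maturation factor of the large ribosomal subunit, averaged 48.7 ± 5.23 TMM-scaled CPM in KO vehicle, against 56.7 ± 6.39 CPM in Control (SD, adjusted p = 0.0239). Zfp638 (NP220), a nuclear RNA- and DNA-binding protein, was lower, with a log2 fold change of -0.31 ± 0.08 (SE, adjusted p = 0.00518). Zfp346, which binds double-stranded RNA, fell by 0.25 ± 0.07 (SE, adjusted p = 0.00723). Zfp598, the ubiquitin ligase of collided ribosomes, averaged 88.2 ± 7.97 CPM in KO vehicle, against 91.2 ± 6.19 CPM in Control (SD), and was not called on counts (adjusted p = 0.512) but was lower by limma on log2(TPM + 1), where it fell by 0.24 (adjusted p = 0.00594). Zfp451, a SUMO ligase, was lower, with a log2 fold change of -0.39 ± 0.10 (SE, adjusted p = 0.00351), whereas the ubiquitin ligase Zfp91 differed by 0.07 ± 0.06 (SE, adjusted p = 0.345).

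Abundant single-gene members showed how far the scaling can carry a call. Zfp207 (BuGZ, a kinetochore factor) was at 72.3, 81.1 and 96.1 TPM in KO vehicle, against 75.3, 88.8 and 94.5 TPM in Control. The groups overlapped, and the log2 fold change was 0.12 on TMM counts (adjusted p = 0.177) and -0.08 on log2(TPM + 1) (limma, adjusted p = 0.317). Zfp706 was the least variable member within Control, with a coefficient of variation of 2.57%. It was called higher on TMM counts, by 0.18 ± 0.06 (SE, adjusted p = 0.0186), and lay at -0.02 on log2(TPM + 1) (limma, adjusted p = 0.703), with overlapping levels of 56.6 to 70.3 TPM in KO vehicle and 61.6 to 66.5 TPM in Control. Zfp467, known in mouse from the fate of marrow stromal cells, was lower under both. It was at 20.9, 36.8 and 68.6 TPM in KO vehicle, against 64.9, 70.0 and 74.0 TPM in Control, and fell by 0.57 ± 0.09 on TMM counts (SE, adjusted p = 0.000146). The groups overlapped only at the upper end of KO vehicle.

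On TMM counts, 25.2% of all genes tested were higher and 24.1% lower. Among C2H2 transcription factors with described targets, 1 of 7 was called, Zfp143, a promoter factor. It was higher by 0.26 ± 0.09 on TMM counts (SE, adjusted p = 0.0192) and at 0.02 on log2(TPM + 1) (limma, adjusted p = 0.853). The others were Zfp148, Zfp281, Zfp217, Zfp384, Zfp335 and Zfp410. Zfp809, a KRAB silencer of retroviral elements, differed by -0.15 (adjusted p = 0.222), and Zfp644, a partner of the G9a histone methyltransferase, by -0.15 (adjusted p = 0.0815). Of the NET family repressors, Zfp503 was at 1.79, 2.81 and 9.84 TPM in KO vehicle, against 4.32, 6.38 and 8.98 TPM in Control, and fell by 0.74 ± 0.24 (SE, adjusted p = 0.0180). Its relative Zfp703 differed by 0.10 ± 0.16 (SE, adjusted p = 0.636). Zfp592 and Zfp687, which bind the chromatin reader Zmynd8 together, were called in opposite directions. Zfp592 was at 11.2, 15.5 and 22.8 TPM in KO vehicle, against 19.6, 24.7 and 28.0 TPM in Control, and fell by 0.36 ± 0.07 (SE, adjusted p = 0.000448). Zfp687 was at 13.2, 16.2 and 18.4 TPM in KO vehicle, against 11.5, 13.7 and 14.1 TPM in Control, and was higher by 0.31 ± 0.07 (SE, adjusted p = 0.000868). KO vehicle and Control overlapped in part for either gene, and both calls held on log2(TPM + 1).

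The largest fall was in Zfp651, a C2H2 protein with 7 fingers. It was at 0.81, 3.60 and 13.1 TPM in KO vehicle, against 4.88, 12.2 and 18.2 TPM in Control, with a log2 fold change of -1.33 ± 0.40 (SE, adjusted p = 0.0109). Its KO vehicle libraries spread widely and reached into the Control range. Zfp532, a relative of Zfp592 and Zfp687, was at 0.70, 1.41 and 3.49 TPM in KO vehicle, against 2.93, 4.80 and 7.21 TPM in Control (log2 fold change -1.27 ± 0.30, SE, adjusted p = 0.00212). Zfp618, described as a reader of hydroxymethylated DNA, was at 1.10, 2.89 and 7.51 TPM in KO vehicle, against 7.30, 9.14 and 10.9 TPM in Control (log2 fold change -1.22 ± 0.27, SE, adjusted p = 0.00161). For both, the ranges overlapped only at the upper end of KO vehicle.

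The next 5 largest falls were in KRAB members. Zfp874b, Zfp970, Zfp235, Zfp74 and Zfp612 had log2 fold changes of -1.10, -1.05, -0.97, -0.82 and -0.81, and each had all 10 KO vehicle libraries under the Control mean. Zfp235 (chr7:24134169-24143241, 15 fingers) was at 2.81, 3.66 and 5.04 TPM in KO vehicle, against 6.46, 7.57 and 9.42 TPM in Control. The groups did not overlap, and the fall of 0.97 ± 0.12 (SE) had an adjusted p of 1.53e-05. The estimated counts of Zfp874b were not whole in 75.6% of libraries and those of Zfp970 in 35.6%, so their reads were in part shared with other sequences.

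Separation without overlap was seen for 19 members, all lower in KO vehicle (8.15%, against 3.41% of all genes lower and 1.95% higher without overlap). None of the 233 members was higher without overlap. All 19 were called, and 10 carried the KRAB pattern. The smallest adjusted p among members belonged to Zfp142, the member with 36 fingers, at 3.21, 3.69 and 4.63 TPM in KO vehicle, against 5.76, 6.21 and 7.64 TPM in Control (log2 fold change -0.57 ± 0.07, SE, adjusted p = 7.35e-06). Zfp68, a KRAB member, was at 7.13, 8.33 and 10.5 TPM in KO vehicle, against 13.1, 14.9 and 18.0 TPM in Control (log2 fold change -0.64 ± 0.08, SE, adjusted p = 8.52e-06). Zfp180 was at 7.58, 9.17 and 11.5 TPM in KO vehicle, against 13.3, 15.4 and 19.5 TPM in Control (log2 fold change -0.56 ± 0.07, SE, adjusted p = 1.29e-05). The estimated counts of Zfp142 were not whole in 88.9% of libraries and those of Zfp68 in 35.6%.

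After Zfp36, the largest rise was in Zfp385b, at 3.97, 6.37 and 9.35 TPM in KO vehicle, against 3.13, 3.67 and 6.77 TPM in Control (log2 fold change 0.76 ± 0.20, SE, adjusted p = 0.00440). Zfp710 (chr7:80024814-80094173, 11 fingers) was at 20.6, 29.0 and 49.8 TPM in KO vehicle, against 19.6, 24.0 and 26.3 TPM in Control (log2 fold change 0.60 ± 0.14, SE, adjusted p = 0.00176). In both genes the groups overlapped and the KO vehicle libraries reached higher. Zfp280b, Zfp687, Zfp385b, Zfp710 and Zfp36 were higher under both TMM counts and log2(TPM + 1). Zfp945, Zfp810, Zfp513, Zfp143, Zfp330 and Zfp706 were higher on TMM counts only. Among these 6, Zfp945, a KRAB member, had the largest value on TMM counts, 0.61 ± 0.15 (SE, adjusted p = 0.00374), with 0.30 on log2(TPM + 1) (limma, adjusted p = 0.0765).

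The members were also counted by chromosome, a split made after the values were seen, so the shares are a description and their differences were not tested. Among the 11 chromosomes with 8 or more members, the share lower ran from 25.0% on chromosome 11 (2 of 8) to 75.0% on chromosome 15 (6 of 8), against 48.5% of all members. It was 61.5% on chromosome 6 (8 of 13), 50% on chromosome 9 (7 of 14), 44.4% on chromosome 4 (4 of 9) and 43.8% on chromosome 13 (7 of 16). Chromosomes 5, 8 and 2 had 41.7%, 38.9% and 37.5%. Chromosomes 7 and 17 held the most members. On chromosome 7, 36 of 50 members (72.0%) were lower and 3 higher, against 27.4% lower among the other protein-coding genes at 3 TPM or more on that chromosome. On chromosome 17, 9 of 33 members (27.3%) were lower and 1 higher, against 25.1% lower among the other genes there. Among KRAB members alone, 20 of 23 on chromosome 7 (87.0%) and 7 of 26 on chromosome 17 (26.9%) were lower, with median log2 fold changes of -0.44 and -0.16. On log2(TPM + 1) the counts were 22 of 23 and 13 of 26. Among the other protein-coding genes at 3 TPM or more there, 352 of 813 on chromosome 7 and 238 of 550 on chromosome 17 were lower on that scale.

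Neighbouring members, defined as less than 2 Mb apart, were counted by cluster, beside 48.5% lower over all members. At chr7:27731389-30169750, 10 of 11 members were lower and 1, Zfp36, was higher. At chr7:24081924-25227507, which holds Zfp180 and Zfp235, 7 of 9 were lower. At chr7:127233061-127885996, 7 of 9 were lower, and at chr7:4915217-7121488, 6 of 9. The cluster at chr17:21008903-24682016 had 5 of 17 lower and that at chr17:32765496-33631779 had 2 of 10. Neighbours in a cluster may share sequence and reads. The Zfp36 promoter shown above belongs to the first of these clusters, and that of Zfp235 to the next.

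**Figure D4:**
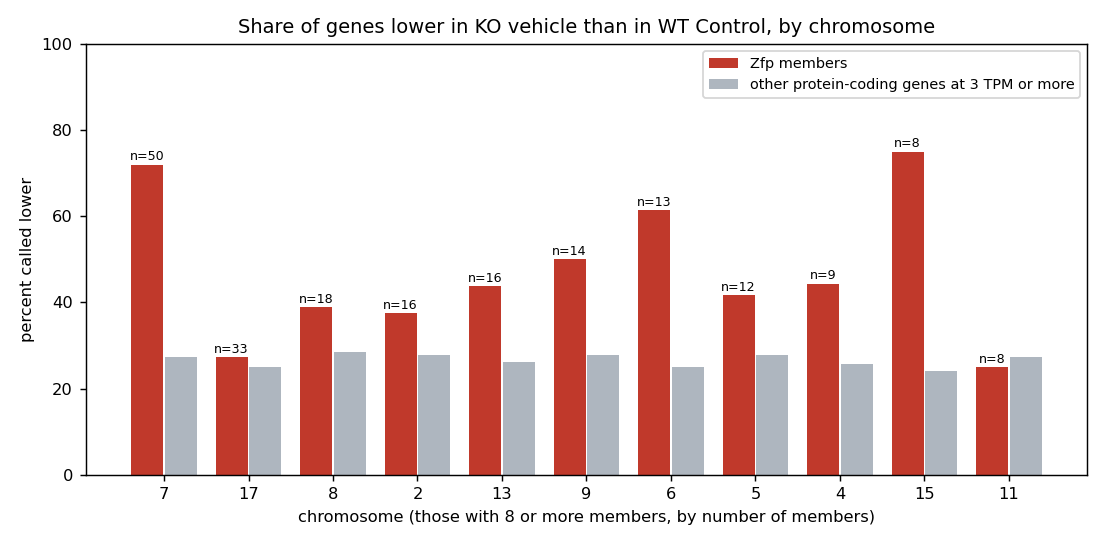
Percent of genes called lower in KO vehicle than in WT Control (edgeR, adjusted p under 0.05) by chromosome, for Zfp members and for the other protein-coding genes at 3 TPM or more, over chromosomes with 8 or more members (n above each bar is the number of members). Member shares run from 25.0% on chromosome 11 to 75.0% on chromosome 15, each with 8 members, with 72.0% on chromosome 7 and 27.3% on chromosome 17, while the other genes stay between 24.0% and 28.5%.

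Other zinc finger families were counted at the same level, 3 TPM or more in Control, where 26.6% of protein-coding genes were lower and 26.9% higher. Of these families, 13 of 34 Zbtb genes (38.2%) were lower and 5 higher (median log2 fold change -0.16). Of the Zkscan genes 5 of 8 were lower and none higher (-0.41), and of the Zscan genes 4 of 7 were lower and none higher (-0.37). Klf genes had 3 of 11 lower (27.3%), near the share of all such genes, and 3 higher (-0.01), and Zc3h genes, of the CCCH class, 4 of 12 lower and 4 higher (-0.07). Of 14 corepressor genes that work with KRAB proteins, 4 were higher and 3 lower, with a median of 0.01. Trim28, the direct partner of KRAB, averaged 123 ± 16.6 CPM in KO vehicle, against 133 ± 7.75 CPM in Control (SD, log2 fold change -0.11 ± 0.08, SE, adjusted p = 0.251). Setdb1 averaged 39.2 ± 4.87 CPM in KO vehicle, against 48.2 ± 4.19 CPM in Control and fell by 0.30 ± 0.08 (SE, adjusted p = 0.00399). The maintenance methylation genes Dnmt1 and Uhrf1 were higher by 0.52 ± 0.10 and 0.78 ± 0.16 (SE, adjusted p = 0.000341 and 0.000709), beside the 6 higher proliferation markers.

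A few members gave different pictures in TPM and in counts for another reason than the scaling of the library. Zfp950, a KRAB member, ran from 13.8 to 19.3 CPM scaled to the library total in KO vehicle, against 20.9 to 25.9 CPM in Control, without overlap. In TPM it ran from 6.61 to 41.3 in KO vehicle, against 10.3 to 96.8 in Control. In Control replicate 8 its TPM for a given count was 7.49 times the gene's usual value, and in KO vehicle replicate 9 it was 5.1 times. It was lower on counts by 0.34 ± 0.08 (SE, adjusted p = 0.00263), but not called on log2(TPM + 1), where limma gave -0.77 (adjusted p = 0.114). Zfp523 stood at 63.7 TPM in Control replicate 5, against 12.8 to 17.3 TPM in the other Control libraries, with 25.3 CPM in that library and 21.7 to 27.7 CPM in Control as a whole. Such jumps of at least 2 times at 30 or more counts occurred in 23 of 10485 values and in 16 members. TPM divides a count by the transcript length estimated for that library, and the length was not among the values analysed here.

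Among members whose call or direction differed between TMM counts and log2(TPM + 1), those with the largest absolute log2 fold change on TMM counts were Zfp945, Zfp580, Zfp560 and Zfp810. Zfp560 fell by 0.46 ± 0.12 on TMM counts (SE, adjusted p = 0.00453), but limma gave -0.16 on log2(TPM + 1) (adjusted p = 0.322). Zfp580 was not called on counts, at -0.52 ± 0.29 (SE, adjusted p = 0.144), was lower by limma on log2(TPM + 1) (adjusted p = 0.0304), and was the one member listed at 0 TPM in any library, in 2 of them.

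Anti-p40 was compared with vehicle at day 77 in libraries that entered no other comparison. On TMM counts 14 of 233 members were higher and 3 lower (6.01% and 1.29%), against 8.35% higher and 8.32% lower among the 16470 genes tested. The shares of members called were below those of all genes in both directions. The counts depended on single libraries: with 1 left out the higher members numbered 5 to 17 and the lower members 1 to 6, with 5 and 1 without vehicle replicate 1 and 17 and 1 without vehicle replicate 5. The member median was 0.10, against 0.01 for all genes, and 159 members had a positive value. On log2(TPM + 1) 9 were higher and 1 lower, against 7.51% and 5.26% of all genes, with medians of 0.17 for members and 0.08 for all genes. With TMM factors on the TPM 4 were higher and 3 lower, and the shares of all genes called there are not given here. In TPM, 23 members were higher without overlap (9.87%, against 8.31% of all genes) and 1 was lower without overlap (0.429%, against 4.19%).

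Smooth muscle markers moved here too, with 6 of 8 higher under anti-p40, beside 5 of 6 T cell and 5 of 6 macrophage markers that were lower. Other types moved less, with 3 of 8 neuron and glia markers higher and 1 of 10 epithelial markers lower. None of the 6 fibroblast and 6 proliferation markers was called. The shares of all genes tested were 8.35% higher and 8.32% lower. Summed smooth muscle markers ran from 2998 to 7541 TPM under anti-p40, against 937 to 2830 TPM under vehicle, without overlap. The part of cell composition in these member values was not tested. The anti-p40 replicate 5 library held 8183 TPM of acinar markers, and without it 11 members were higher and 2 lower.

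The largest rise under anti-p40 was in Zfp532, at 3.87, 3.30, 2.7, 4.84 and 2.43 TPM under anti-p40, against 1.52, 1.37, 0.68, 3.43 and 1.52 TPM under vehicle. A single vehicle library overlapped the anti-p40 range. The log2 fold change was 1.05 ± 0.18 (SE, adjusted p = 0.00361) on counts, and the call was not met by limma on log2(TPM + 1) (adjusted p = 0.0621). Zfp775 (chr6:48602063-48623227, 11 fingers) was at 9.48, 8.34, 6.05, 9.55 and 7.32 TPM under anti-p40, against 5.13, 3.78, 3.22, 4.07 and 4.58 TPM under vehicle. The groups did not overlap, and the rise of 0.94 ± 0.13 (SE, adjusted p = 0.00145) was also called on log2(TPM + 1).

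Zfp612, a KRAB member, was at 4.79, 4.81, 5.16, 5.54 and 4.26 TPM under anti-p40, against 3.49, 3.53, 2.46, 3.25 and 3.59 TPM under vehicle. All anti-p40 libraries were above all vehicle libraries, and the rise was 0.54 ± 0.11 (SE, adjusted p = 0.0106). Zfp874b and Zfp983, further KRAB members, were higher by 0.67 ± 0.19 and 0.55 ± 0.16 (SE, adjusted p = 0.0340 and 0.0331). For both genes the groups did not overlap in TPM, but the call on Zfp874b was lost without any one of 7 libraries (edgeR, adjusted p up to 0.0747) and that on Zfp983 without any one of 6 (up to 0.0828). Zfp592 was at 18.4, 19.5, 27.9, 21.95 and 16.8 TPM under anti-p40, against 16.7, 15.01, 15.7, 15.2 and 12.8 TPM under vehicle, just without overlap, and was higher by 0.42 ± 0.12 (SE, adjusted p = 0.0313), but was not called on log2(TPM + 1) (limma, adjusted p = 0.0588). The other members called higher were Zfp12, Zfp180, Zfp236, Zfp511, Zfp623, Zfp707, Zfp866 and Zfp949.

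Zfp710 was the clearest fall. It was at 19.6, 16.5, 22.8, 26.5 and 23.8 TPM under anti-p40, against 39.5, 42.9, 50, 45.2 and 27.8 TPM under vehicle. The groups did not overlap, and the fall of 1.06 ± 0.17 (SE, adjusted p = 0.00306) held on log2(TPM + 1). Zfp385b was at 1.69, 3.26, 2.38, 3.88 and 4.24 TPM under anti-p40, against 6.42, 4.51, 3.11, 7.09 and 4.34 TPM under vehicle, with 1 vehicle library inside the anti-p40 range. Its fall of 0.91 ± 0.27 (SE, adjusted p = 0.0395) was not called on log2(TPM + 1) and was lost without any one of 8 libraries (edgeR, adjusted p up to 0.0867). Zfp53, a KRAB member, fell by 0.49 ± 0.15 (SE, adjusted p = 0.0487) and was likewise not called there and was lost without any one of 9 libraries (edgeR, adjusted p up to 0.111).

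The Zfp36 family showed no call under anti-p40. Zfp36 was at 49.9, 58.0, 72.9, 64.7 and 48.4 TPM under anti-p40, against 66.9, 77.3, 104, 73.8 and 63.9 TPM under vehicle. The ranges overlapped, and the difference was -0.50 ± 0.19 (SE, adjusted p = 0.0941). Zfp36l1 was at 45.9, 77.5, 56.6, 49.7 and 37.9 TPM under anti-p40, against 45.1, 34.6, 28.9, 41.5 and 35.4 TPM under vehicle, with a difference of 0.40 ± 0.16 (SE, adjusted p = 0.116). Zfp36l2 differed by 0.38 ± 0.27 (SE, adjusted p = 0.347). Of the 7 Zfp36 target mRNAs that passed the low-count filter, Tnf, Cxcl1 and Cxcl2 were lower under anti-p40, and none of the 11 immediate-early genes was called. Of all genes tested, 8.35% were higher and 8.32% lower.

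The anti-p40 and knockout comparisons share no library, so members can be set side by side in both. Pairs of comparisons that share KO vehicle libraries are not set against each other in this way. Of the 113 members lower in KO vehicle than in Control, 101 (89.4%) had the opposite sign under anti-p40 and 14 (12.4%) were called higher there, so all 14 members called higher under anti-p40 came from these. Among all genes lower in KO vehicle, 90.1% had the opposite sign and 24.5% were called higher, so the members did not stand out in sign. Of the 1375 genes called higher under anti-p40, 961 were likewise lower in KO vehicle. All 11 members higher in KO vehicle had the opposite sign, and 2 of them (18.2%), Zfp710 and Zfp385b, were called lower under anti-p40. Among all genes higher in KO vehicle, 89.7% had the opposite sign and 29.2% were called lower. Across the 233 members the log2 fold changes of both comparisons had Pearson's r of -0.712 and Spearman's rho of -0.643, against -0.752 and -0.737 across 16111 genes. These are correlations across genes, which share libraries and are not independent replicates.

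**Figure D5:**
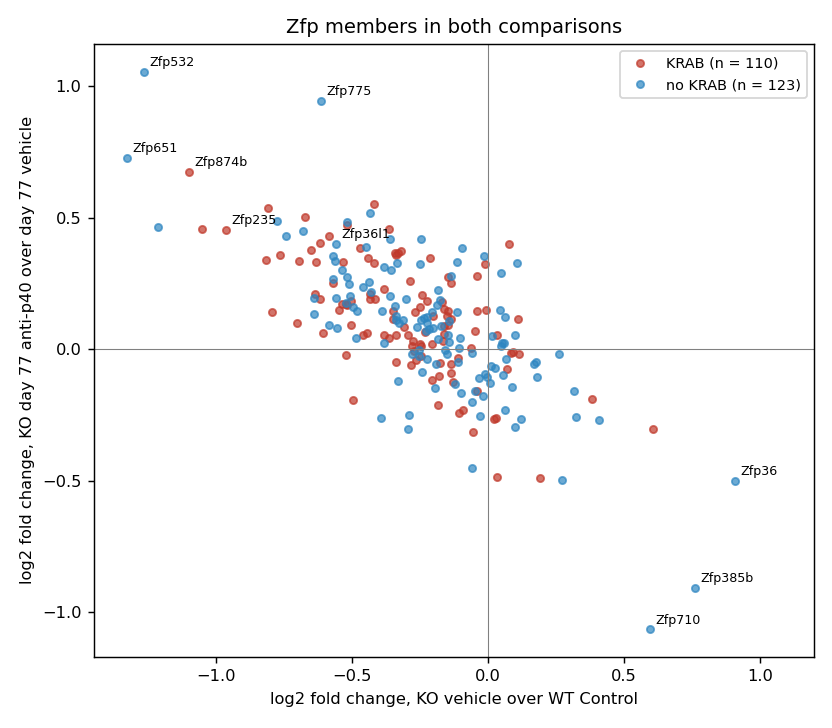
Log2 fold change of KO vehicle over WT Control (x axis) against that of day 77 anti-p40 over day 77 vehicle (y axis) for the 233 Zfp members, split by KRAB pattern (edgeR, TMM counts). Points run from the upper left, where Zfp532 has -1.27 and 1.05, to the lower right, where Zfp710 has 0.60 and -1.06.

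No Zfp member was called for compound 13 at either dose. Both doses were set against the same 10 KO vehicle libraries, which also enter the comparison with Control, so the values are given side by side. At 30 mg/kg none of 233 members passed by edgeR, DESeq2, limma voom or limma on log2(TPM + 1), in either direction, and none of the 16948 genes passed by edgeR (0.0%). Members ran from -0.33 to 0.43 with a median of -0.01, against 0.00 for all genes, and 8 members had an unadjusted p under 0.05 (3.43%, against 5.92% of all genes). At 10 mg/kg none of the members passed by the same 4 tools, and edgeR called 1 gene higher and 1 lower in all (0.0059% each), while limma on log2(TPM + 1) called 0.0216% of genes higher and 0.115% lower. In TPM no member lay apart from KO vehicle without overlap at either dose, against 0.0118% of all genes higher and 0.0472% lower at 10 mg/kg. Members ran from -0.88 to 0.44 with a median of 0.01, against -0.02 for all genes, and 27 had an unadjusted p under 0.05 (11.6%, against 11% of all genes). A p above the threshold does not show that levels were alike.

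The members of smallest p illustrate the sizes. At 30 mg/kg Zfp750, an epidermal differentiation factor, was at 5.08, 7.0 and 10.02 TPM, against 4.28, 5.79 and 7.22 TPM in KO vehicle, with a difference of 0.43 ± 0.14 (SE, adjusted p = 0.835). Zfp933 and Zfp623 differed by -0.27 ± 0.10 and 0.33 ± 0.13 at that dose (SE, adjusted p = 0.835 for each). At 10 mg/kg Zfp944 was at 3.7, 4.76 and 6.55 TPM, against 3.24, 3.94 and 5.10 TPM in KO vehicle, with a difference of 0.41 ± 0.12 (SE, adjusted p = 0.227). Zfp207 was at 80.2, 93.2 and 104 TPM at 10 mg/kg, against 72.3, 81.1 and 96.1 TPM in KO vehicle, with a difference of 0.28 ± 0.08 (SE, adjusted p = 0.238). Zfp654 differed by 0.44 ± 0.14 at 10 mg/kg (SE, adjusted p = 0.281). In each of these genes the treated and vehicle libraries overlapped. For the Zfp36 family, the medians at 10 and 30 mg/kg were 78.6 and 75.8 TPM for Zfp36, against 83.1 TPM in KO vehicle, 27.1 and 30.1 TPM for Zfp36l1, against 27.9 TPM, and 63.9 and 78.6 TPM for Zfp36l2, against 73.8 TPM.

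In the authors' deposited table of the knockout comparison, made with DESeq2 per the submitters' processing notes, 117 members were lower and 11 higher at an adjusted p under 0.05. The authors' deposited tables list none at either dose of compound 13, and 22 higher and 7 lower under anti-p40. The shares of all genes called in the deposited tables were not counted. These member counts therefore cannot be read as above or below the share of all genes there.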

How the data were processed

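Poly(A)-enriched RNA of mouse distal colon was sequenced in 45 libraries, and 44 fell into 6 groups by title. The authors trimmed reads with cutadapt 3.7, aligned them with STAR 2.7.8a, estimated expression with RSEM 1.3.3 and tested with DESeq2 1.30.1 on build mm10, per the submitters' processing notes, which give neither roles nor settings. The deposited tables hold estimated counts per gene, made by the authors with RSEM and not normalized, and TPM per gene, and the authors' comparisons hold log2 fold changes and adjusted p-values. Strandedness is not given in the sources used here, so overlapping antisense genes cannot be told apart. Estimated counts were rounded to whole numbers. The main test was edgeR 4.0.16's quasi-likelihood test with TMM scaling (R 4.3.3), fitted to all genes passing filterByExpr, with p-values adjusted by Benjamini-Hochberg and called under 0.05. All 233 members passed this filter in every comparison. TPM were tested with limma 3.58.1 on log2(TPM + 1) over genes with a mean of at least 1 TPM, where fold changes of low genes are understated. DESeq2 1.42.0, limma voom, other scalings, filters and a pseudocount of 0.1 were alternatives. The edgeR, DESeq2 and limma voom fits were tested on simulated counts with 200 changed genes. The limma fits on TPM and the sequence searches were not tested in this way.

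Of 50600 gene IDs 50376 matched GENCODE. KRAB and finger classes came from patterns searched in translated transcripts, and degenerate KRAB boxes may be missed. In 33 members, 18 of them KRAB, the estimated counts were not whole in at least 50% of libraries, so reads were shared. No 2 libraries agreed within counting noise (of 150 pairs within groups, the closest had a chi-square of 8.15 for each degree of freedom). The members and gene lists were chosen with earlier results of these data known. Genes named were the Zfp36 family, the 5 highest in Control, the 8 largest called rises and falls, up to 5 per direction or the 3 smallest p for the other comparisons, the 3 nearest the level threshold on either side, the 4 with the largest fold change on counts among members whose call or direction differed between scalings, and members with known roles. Zfp142, Zfp68, Zfp180, Zfp523 and Zfp950 were named after their values were seen.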

Additional observations from a re-analysis of the deposited data

Results flagged for a closer look

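Of 79 groups of 4 to 10 libraries examined, 8 held a library far from the others, and chance flags about 1 in 20 groups. KO vehicle replicate 3 was the highest of its group in 4 of these, at 66.4 TPM for Zfp36l1 (next 38.65 TPM), 4.58 TPM for Zfp580 (next 2.79 TPM), 5.6 TPM for Zfp612 (next 3.59 TPM) and 3.23 TPM for Zfp874b (next 2.01 TPM). The same library had the highest smooth muscle markers of its group, 6330 TPM, and its part in these values was not tested. Zfp36l2 stood at 124.8 TPM in Control replicate 7 (next 107.3 TPM). Zfp560 stood at 14.07 TPM in Control replicate 2 (next 10.1 TPM). Zfp945 stood at 5.78 TPM in Control replicate 8 (next 3.59 TPM). Zfp623 stood at 9.61 TPM in replicate 6 of compound 13 at 30 mg/kg (next 7.9 TPM).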

How the results depend on the processing

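No paired analysis was possible because the labels give no replicate numbers, and the numbers used here only name libraries. For KO vehicle against Control, the 113 lower members became 107 to 122 with 1 library left out. Among the smaller set of members at 10 TPM or more, 52 were lower. These were 50.8% of 59 members at 10 to 20 TPM and 61.1% of 36 at 20 TPM or more, against 48.5% of all members. The shares higher in these level classes were 3.39% and 11.1%, against 4.72% of all members. The 11 higher members stayed at 11 with 1 library left out, and became 6 on total-scaled counts, 5 on log2(TPM + 1), 5 on log2(TPM + 0.1), 3 on TPM without a filter and 6 at 10 TPM or more. The member median of -0.24 became -0.38, -0.39, -0.45 and -0.39 under the first 4 of these settings and -0.27 to -0.22 with 1 library left out. The median of all genes under the same 4 settings was -0.16, -0.17, -0.19 and -0.03. Zfp207 turned from 0.12 to -0.032 on total-scaled counts and to -0.081 on each TPM setting without TMM factors (-0.081 with 0.1 added), and Zfp706 from 0.18 to -0.023 on each of these TPM settings. With TMM factors on the TPM neither turned.

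For compound 13 the counts stayed at 0 under every alternative run. The median at 30 mg/kg of -0.01 became -0.093 on total-scaled counts, -0.10 on log2(TPM + 1), -0.11 on log2(TPM + 0.1) and -0.10 on TPM without a filter. The median of all genes there was -0.075, -0.085, -0.095 and -0.03. The median at 10 mg/kg of 0.01 turned sign, to -0.076 on total-scaled counts and log2(TPM + 1) and -0.095 on log2(TPM + 0.1), where the median of all genes was -0.10, -0.09 and -0.11.

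For anti-p40 the 14 higher members became 9 on log2(TPM + 1), 4 with TMM on TPM, 9 on log2(TPM + 0.1), 5 by edgeR without a filter, 3 on TPM without a filter, 8 at 10 TPM or more, and 5 to 17 with 1 library left out. They fell to 5, 6, 8 and 7 without vehicle replicates 1, 2, 3 and 4, and to 6, 7 and 7 without anti-p40 replicates 2, 3 and 4. The 3 lower members became 1 on total-scaled counts, upper-quartile scaling, every log2(TPM) setting without TMM and at 10 TPM or more, 5 by DESeq2, and 1 to 6 with 1 library left out. They became 1 without vehicle replicates 1, 2, 4 or 5 or anti-p40 replicates 1, 2 or 4, and 6 without anti-p40 replicate 3. The set at 10 TPM or more is smaller than that of all members. Of its 59 members at 10 to 20 TPM 8.47% were higher and 0.0% lower. Of its 36 members at 20 TPM or more 8.33% were higher and 2.78% lower. The shares of all members were 6.01% and 1.29%. The member median of 0.10 became 0.15 on total-scaled counts, 0.17 on log2(TPM + 1), 0.19 on log2(TPM + 0.1) and 0.17 on TPM without a filter. The median of all genes there was 0.06, 0.08, 0.09 and 0.02. With 1 library left out the member median was 0.07 to 0.12. The cause of these differences was not tested. Among 1072 values of single named genes under alternatives, 993 kept direction and call, 69 lost the call, 3 gained it and 7 turned. The alternatives without acinar libraries, and with no level minimum on Zfp genes, were chosen after seeing the data.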

Other observations

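One library was left out of all comparisons because its title gives compound 13 at 30 mg/kg and its treatment field 10 mg/kg. Its members summed to 2273 TPM, its smooth muscle markers to 2806 TPM and its acinar markers to 3797 TPM. Zfp36 was at 59.3 TPM, Zfp36l1 at 31.3 TPM, Zfp36l2 at 67.1 TPM, Zfp710 at 18.3 TPM and Zfp235 at 3.87 TPM in it.

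Beyond the clusters on chromosomes 7 and 17, 6 of 7 members at chr6:47877204-48623227, which holds Zfp467 and Zfp775, were lower in KO vehicle than in Control. At chr13:67312998-67729173 5 of 8 members were lower, at chr9:19622102-22307648 4 of 9 were lower and 1 higher, and at chr2:175918881-178078476 3 of 5 were lower. Over all members 48.5% were lower, and over protein-coding genes at 3 TPM or more 26.6%. These counts are small and were not tested.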
